A study of Mus musculus with 7 samples.

Results

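Natural killer (NK) cells were picked by their transcripts from single-cell RNA sequencing of whole mouse bone marrow. A barcode with at least 300 genes and under 10% mitochondrial UMIs (unique molecular identifiers, each standing for 1 captured RNA molecule) was counted as an NK cell when it held at least 1 UMI of Ncr1 or Klrb1c, at least 1 UMI of Nkg7, and no UMI of Cd3e, Cd3d, Cd3g, Cd79a or Siglech. Ncr1 encodes the activating receptor NKp46, Klrb1c encodes the NK1.1 antigen and Nkg7 encodes a membrane protein of cytotoxic granules. The genes that had to be at 0 mark T cells (the Cd3 genes), B cells (Cd79a) and plasmacytoid dendritic cells (Siglech). The rule found 153 cells among 54669 kept cells, or 0.280%. Of these, 119 carried a single hashtag and could be given to a sample, 33 were hashtag doublets and 1 was neither. Hashtag doublets made up 21.6% of the NK cells and 16.8% of all kept cells.

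NK cells are innate lymphocytes that kill infected or transformed cells by releasing granules of perforin and granzymes, and that secrete interferon gamma and chemokines. They develop in the bone marrow under interleukin 15, whose signal passes through the receptor chain Il2rb, and they depend on the T-box factors Eomes and T-bet (Tbx21). In mice their inhibitory receptors for MHC class I are the Ly49 proteins (Klra genes) and the CD94 and NKG2A pair (Klrd1 and Klrc1), while NKG2D (Klrk1) and NKp46 activate killing through adaptors such as DAP12 (Tyrobp), DAP10 (Hcst) and FcRγ (Fcer1g).

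Marrow cells of spine, hips, femur and tibia were tagged with hashtag antibodies after red cells had been lysed, and sequenced in 7 libraries of 4 pools with 20 hashtag samples in all. The tags give the group names and no strain, age, genotype or treatment, so the names are used here as written. HRO.5 and HRO.6 in pool WBM_1 are described by the submitters as TET2-mutated and chronic and are called the chronic samples. The same pool holds HRY.4, WTO.3 and WTY.3. In WBM_2 there were HRO.7, HRO.8 and HRO.9 together with WTO.4 and HR.AE. WBM_3 holds HRO.10, HRY.5, HRY.6, WTY.4, WTY.5 and HR.7, and WBM_4 holds HRO.11, HRO.12, WTO.5 and WTO.6. HR.7 and HR.AE have no second sample of their kind and were only described. The comparisons are therefore HRO (n = 6) against WTO (n = 4) and against HRY (n = 3), HRY against WTY (n = 3), WTO against WTY, and the chronic samples (n = 2) against the other samples of WBM_1 (n = 3). Nothing in the labels says that each tag is a separate mouse, so a p-value reflects only how far tagged samples differ, which may be technical. Libraries held 25343305 to 95553827 UMIs, and samples held 928 to 5530 kept singlets with a median of 1589 (WTY.4) to 16290 (HR.AE) UMIs per cell. The 2 libraries of WBM_3 shared 2078 barcodes, of which the copy with fewer UMIs was dropped. Other pairs of libraries shared 0 to 51.

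The label was checked with 13 NK genes that the rule did not use: Gzma, Prf1, Eomes, Tbx21, Klrd1, Klre1, Klrk1, Ctsw, Il2rb, Ccl5, Klra4, Klra7 and Klra8. Of the 153 cells, 122 held at least 3 of them and 31 held 0 to 2, of which 26 held 0. The threshold of 3 was chosen after the values had been seen. The 122 cells had a median of 2251 UMIs. The other 31 had a median of 16473 UMIs, and 30 of these 31 had entered on exactly 1 UMI of Ncr1 plus Klrb1c, against 40 of the 122. Their leading genes were those of granulocyte precursors. Elane, the neutrophil elastase of promyelocytes, averaged 5013 CPM (a cell's UMIs of the gene scaled to 1000000 UMIs in all) in the 31 cells, Prtn3 3916 CPM and Mpo 3416 CPM. Elane or Mpo was found in 20 of the 31 cells, the mast cell and basophil protease Cpa3 in 10, and at least 1 of these genes in 25. Mki67 or Top2a, genes of dividing cells, were found in 25 of the 31 cells. Elane and Mpo were each also found in 22 of the 122 cells, at means of 212 and 150 CPM. These myeloid genes go against the label in the 25 of the 31 cells that held them. The shares and levels per cell below are those of the 122 cells, unless all cells that met the rule are named. The 13 genes chose the 122 cells, so their shares there are raised by that choice and are given as a description.

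**Figure D1:**
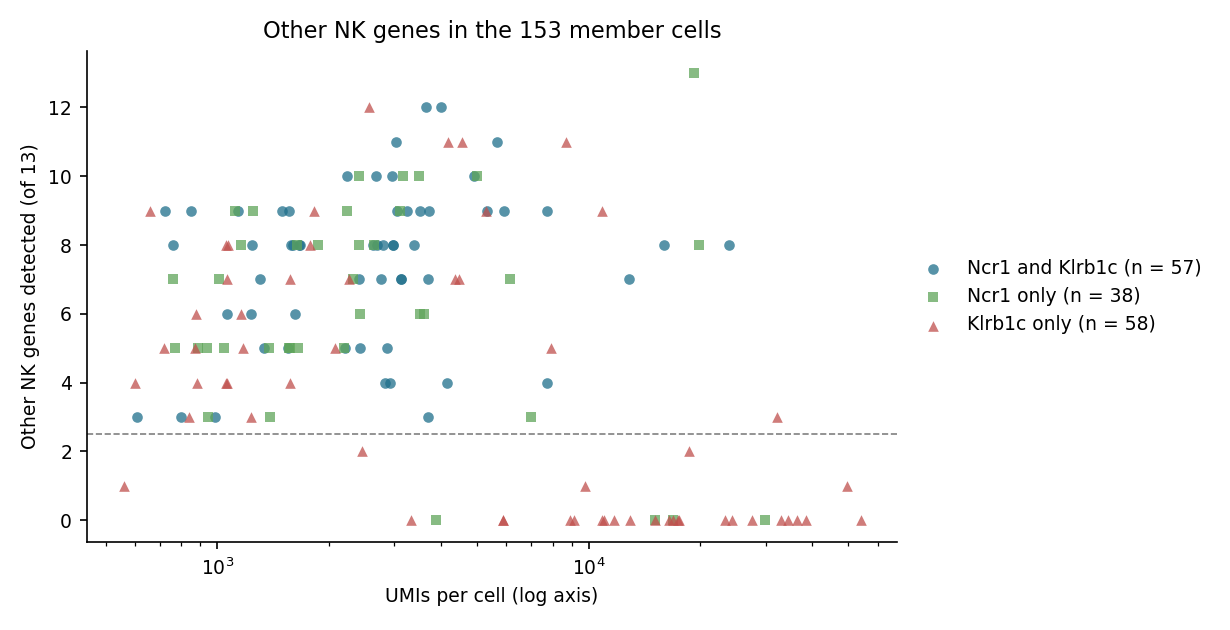
Each point is 1 of the 153 cells that met the rule, placed by its UMIs (log axis) and by how many of the 13 other NK genes it held; colours show which of Ncr1 and Klrb1c was found. Above the dashed line lie the 122 cells with at least 3, and below it 31 cells, of which 27 entered on Klrb1c alone and which have a median of 16473 UMIs.

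Gzma and Prf1 are the markers given for NK cells that the rule did not use, and over all cells that met the rule they were found in 74 and 47 of 153. Gzma, which encodes granzyme A, was found in 60.7% of the 122 cells, in 8.85% of 870 CD8 T cells (any Cd3 gene and Cd8a, no Cd79a) and in 0.346% of 4044 cells with Cd79a, which should lack it. The perforin gene Prf1 was found in 38.5% of the 122 cells, 54.3% of CD8 T cells and 0.396% of Cd79a cells. The median depths were 2251 UMIs in the 122 cells, 4214 in CD8 T cells and 2112 in Cd79a cells. Of 12 T cell markers 3 were found in at least 10% of the 122 cells, namely Trbc1, Trbc2 and Cd28, and of 10 markers of B and plasma cells 1, the immunoglobulin heavy chain gene Ighm. Ighm was found in 45.1% of the 122 cells, 28.5% of CD8 T cells and 91.0% of Cd79a cells, and its part in the other values was not tested. The T cell receptor gene Trac was found in 2 of 122 cells, Cd8b1 in 1, and Cd8a, Cd4 and Cd5 in none. Transcripts of the T cell receptor beta constant genes were common: Trbc1 was found in 55.7% and Trbc2 in 25.4% of the 122 cells, against 0.593% for each gene in Cd79a cells. Among genes of group 2 and 3 innate lymphoid cells, Gata3 was found in 18 cells and Il1rl1 in 2 cells, and Il13, Il5, Il22, Il17a, Il23r, Areg and Ccr6 were at 0. Genes shared with group 1 innate lymphoid cells were present, with Tcf7 in 36.9%, Il7r in 20.5%, Cxcr6 in 6.56% and Itga1 in 4.92% of the 122 cells. The neutrophil gene S100a8 was found in 86.1% of the 122 cells and in 96.7% of Cd79a cells, so a share of this height was measured in B-lineage cells too.

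The rule cuts close to a larger set of cells that hold some of the same genes. Just inside it lay 13 cells with 1 UMI each of Nkg7 and of Ncr1 or Klrb1c, of which 4 held at least 3 other NK genes. Outside it lay 6920 cells with Nkg7 and neither Ncr1 nor Klrb1c (52 with at least 3 other NK genes), 58 cells with Ncr1 or Klrb1c and no Nkg7 (12 with at least 3), 10 cells removed by Cd79a or Siglech (6 with at least 3), and 220 cells removed by a Cd3 UMI alone. Of these 220, 199 held at least 3 other NK genes and 107 held Ncr1. At least 3 of the 13 genes were also held by 711 of 870 CD8 T cells and 14 of 4044 Cd79a cells. The count was 234 of 590 for CD4 T cells (any Cd3 gene and Cd4, no Cd8a or Cd79a). This cut therefore does not separate NK cells from T cells. In 110 of the 220 the only T cell signal among these genes was Cd3d or Cd3g, since Cd3e and Trac were at 0, and 102 of those 110 held at least 3 other NK genes. A wider rule that asks for Cd3e and Trac at 0 and leaves Cd3d and Cd3g free took 222 cells with at least 3 other NK genes, of which 173 were hashtag singlets.

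Among cytotoxic effector genes, Gzma stood higher in the 122 NK cells and Gzmb and Gzmk in CD8 T cells. The NK cells were chosen on measured genes and so were the CD8 T cells, so these values are a description with no test. Samples also entered unequally. As hashtag singlets, HRO.7 gave 294 and HRO.8 gave 130 of the 870 CD8 T cells. The same samples gave 3 and 0 of the 122 NK cells. The part of sample in any contrast of NK cells with CD8 T cells was not tested. Gzma averaged 2746 CPM in NK cells and 62.4 CPM in CD8 T cells. Gzmb, which encodes granzyme B, was found in 13.1% of NK cells and 60.5% of CD8 T cells, at 96.6 and 524 CPM. Gzmk was found in 2.46% of NK cells and 52.8% of CD8 T cells. Because CD8 T cells were deeper, shares were also computed at 1000 UMIs per cell, which left out 18 NK cells and 24 CD8 T cells. At that depth the shares with Gzma were 52.7% in NK cells and 3.52% in CD8 T cells, those with Gzmb 7.36% and 31.5%, and those with Prf1 21.7% and 22.9%. Of the 14 effector genes, 7 had a higher mean CPM in NK cells than in CD8 T cells. Serpinb9, an inhibitor of granzyme B, averaged 313 CPM in NK cells against 60.9 CPM in CD8 T cells, and Ctsw, a cathepsin of cytotoxic cells, 453 CPM against 177 CPM.

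Many of the genes that stood highest over other marrow cells are neighbours in the genome. Here all cells that met the rule were summed in the 5 samples with at least 10 of them (HR.7, HRY.4, HRY.5, WTO.4 and WTY.4), which includes cells with 0 to 2 other NK genes, 2 of 14 in HRY.4, 3 of 10 in HRY.5 and 1 of 10 in WTY.4. In these sums 1590 genes averaged at least 100 CPM, and 11 of the 20 with the highest ratio over all other kept cells were Klr genes of chromosome 6, the NK gene complex. Klre1, a receptor that pairs with Klri1 or Klri2, averaged 434 ± 165 CPM (SD, n = 5 samples) in NK cells and 1.80 CPM in other cells. Klrk1 averaged 776 ± 365 CPM in NK cells and 7.88 CPM in other cells, and Klrd1 662 ± 306 CPM and 7.25 CPM. In the GRCm38 annotation 24 Klr genes lie between positions 128609227 and 131247362 of chromosome 6, a stretch of 2.638 Mb. Of these, 22 were found in at least 1 of the 122 NK cells and 15 in at least 10% of them. All 15 were found in a higher share of NK cells than of CD8 T cells, but 7 of them had helped to choose the cells (Klrb1c through the rule, and Klrd1, Klre1, Klrk1, Klra4, Klra7 and Klra8 among the 13). The other 8 were Klrb1a, Klrb1b, Klrb1f, Klrc1, Klrc2, Klri2, Klra3 and Klra9. Klrg1, a receptor of late NK cells at 122270596 to 122282882 outside this stretch, was found in 2 of 122 NK cells and in 14.02% of CD8 T cells. The other leading profile genes were Gzma (1412 ± 1293 CPM against 1.09 CPM), Xcl1, Txk, Il2rb (1029 ± 319 CPM against 9.36 CPM), Eomes, Crtam, Ctsw, the transcript Gm2682 and the eosinophil gene Prg2. Prg2 reached the list through 1 cell of HRY.4 that lacked the other NK genes. Of the 20 genes, 14 were above the other cells in every sample, and 10 belong to the 13 genes of the check.

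Receptors of the Ly49 family were found in many NK cells and few CD8 T cells. All 10 Ly49 genes in the files had a higher mean CPM in NK cells, and 5 of them were found in at least 10% of the 122 cells. Klra4, Klra7 and Klra8 are among the genes that chose these cells, whereas Klra3 (19.7% of NK cells and 0.920% of CD8 T cells) and Klra9 (18.9% and 1.38%) are not. Klra7, which encodes Ly49G, was found in 34.4% of NK cells and 2.30% of CD8 T cells. Klra4 (Ly49D, an activating member) and Klra8 (Ly49H, the activating receptor that recognises a cytomegalovirus protein) were each found in 32.0% of NK cells, and in 1.15% and 0.345% of CD8 T cells. At 1000 UMIs per cell, Klra8 was found in 23.1% of NK cells and 0.223% of CD8 T cells. Ly49 genes are close copies of each other and reads can be split between them, so the levels of single members are uncertain. Cell by cell, 42 of the 122 NK cells held no Ly49 gene, 20 held 1, 32 held 2, 17 held 3 and 11 held 4 to 6. Among the other inhibitory receptors Klrd1 was found in 73.0% and its partner Klrc1 (NKG2A) in 27.0% of NK cells, and Klrc1 or Klrc2 in 74 of 122. The checkpoint receptors Pdcd1, Tigit and Havcr2 were found in none of the 122 NK cells, which allows a share of cells with a UMI of up to 2.46% at this depth, and in 27.8%, 4.83% and 33.1% of CD8 T cells. At 1000 UMIs per cell the shares of CD8 T cells were 8.89%, 0.998% and 10.2%, so at matched depth the gap for Tigit is within that limit. Lag3 was found in 3.28% of NK cells and 48.4% of CD8 T cells.

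Activating receptors and their adaptors were among the most widely found genes. Fcer1g was found in 90.2% of NK cells at 1487 CPM, against 28.6% of CD8 T cells at 320 CPM, and Tyrobp in 87.7% at 1993 CPM, against 28.2% at 259 CPM. Tyrobp and Fcer1g are also made by myeloid cells and were found in 48.3% and 41.1% of Cd79a cells, which sets the background for these genes. Klrk1 was found in 75.4% of NK cells and in 261 of 870 CD8 T cells, and Klrc2 (NKG2C) in 47.5% and 12.6%. Hcst was found in 71.3% of NK cells and 84.9% of CD8 T cells, and in 45.3% of both at 1000 UMIs per cell. Of the 13 genes of this list in the files, 8 had the higher mean CPM in NK cells.

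**Figure D2:**
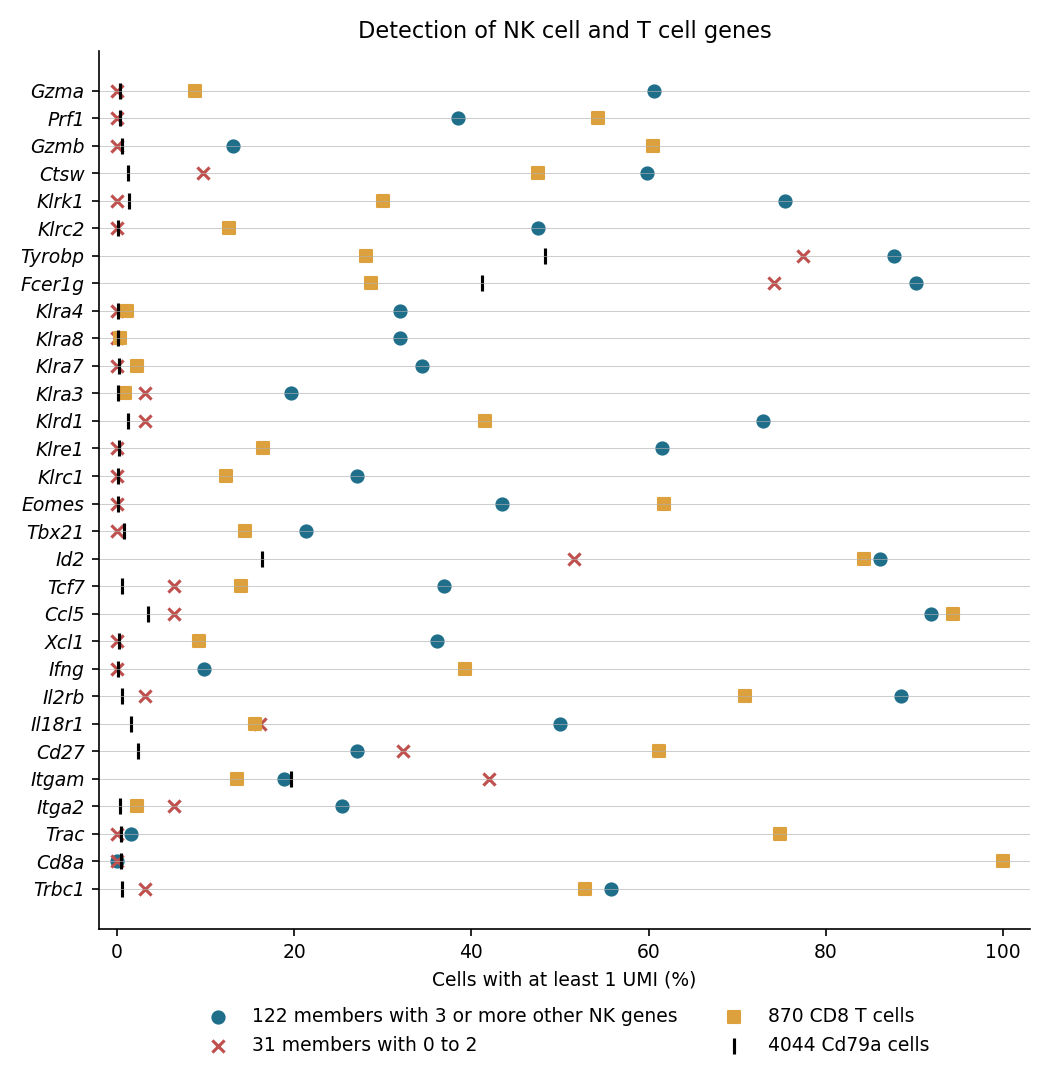
Share of cells (%) with at least 1 UMI of each gene, in the 122 NK cells with at least 3 other NK genes, the 31 cells with 0 to 2, 870 CD8 T cells and 4044 Cd79a cells; medians were 2251, 16473, 4214 and 2112 UMIs per cell. Gzma and the Klr genes are higher in NK cells, Gzmb and Ifng in CD8 T cells, and Trac is near 0 in all but the CD8 T cells.

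Among transcription factors, Id2, which blocks E proteins and is needed for NK cell development, was found in 86.1% of NK cells, Eomes in 43.4% and Tbx21 in 21.3%. In CD8 T cells the shares were 84.3%, 61.7% and 14.5%. Eomes and Tbx21 were found together in 15 of the 122 cells, Eomes alone in 38, Tbx21 alone in 11 and neither in 58. Il2rb averaged 1322 CPM in NK cells and 488 CPM in CD8 T cells. The receptor chains for interleukin 18, Il18r1 and Il18rap, averaged 500 and 401 CPM in NK cells, against 57.9 and 61.3 CPM in CD8 T cells. Of 14 cytokine receptor genes, 9 had a higher mean CPM in NK cells.

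The median gene of the early maturation list was found in 31.6% of NK cells and the median gene of the late list in 16.0%. In CD8 T cells the medians stood in the same order, at 43.6% and 25.1%. All 12 early genes were found in at least 10% of the 122 cells, with Ctla2a in 62.3%, Cd7 and Ltb each in 51.6% and Xcl1, which encodes the chemokine XCL1 that draws cross-presenting dendritic cells, in 36.1%. Of 12 late genes, 8 were found in at least 10%. Cx3cr1 was found in 3.28% of NK cells, S1pr5, the receptor for leaving the marrow, in 4.10% and Klrg1 in 1.64%. Cd27, which marks earlier NK cells, and Itgam (CD11b), which is gained later, were found together in 5 cells, Cd27 alone in 28, Itgam alone in 18 and neither in 71. These genes had few UMIs per cell, so a count of 0 does not show that a cell lacked them. Itgam was also found in 19.7% of Cd79a cells, so its share in NK cells is not above that background.

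Among chemokine genes, Ccl5 was the most abundant transcript of the named lists after S100a8 and S100a9, at 5605 CPM in NK cells and 13415 CPM in CD8 T cells. Cells with Ccl5 held a median of 8 UMIs of it and at most 148. Xcl1 averaged 441 CPM in NK cells and 52.7 CPM in CD8 T cells, whereas Ifng averaged 70.1 CPM in NK cells and 211 CPM in CD8 T cells. The integrin gene Itga2 (CD49b, recognised by the DX5 antibody) averaged 148 CPM in NK cells and 6.25 CPM in CD8 T cells. Cxcr6 averaged 29.2 CPM in NK cells and 247 CPM in CD8 T cells. Genes with a higher mean CPM in NK cells than in CD8 T cells were also counted in lists of interferon response, metabolism and division. The counts were 2 of 24 for type I interferon genes and 3 of 22 for genes of MHC class I and interferon gamma. They were 1 of 14 for glycolysis genes and 3 of 18 for cell cycle genes. For the NF-kB feedback list the count was 5 of 11 and for immediate early genes 5 of 16. HRO.7 and HRO.8 gave many of these CD8 T cells and few NK cells, and the part of sample in these counts was not tested. NK cells were also shallower, at a median of 2251 UMIs against 4214, and the counts are not at matched depth. No share over all genes is set beside these or the other list counts against CD8 T cells, so they are no result about the lists.

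Over all cells that met the rule, within the samples that held at least 10 cells of each kind (HR.7, HRY.4 and WTO.4), the genes that stood highest in NK cells over CD8 T cells were Klra3, Klrb1b, Klri2, Styk1 and Arl4d together with the basophil and eosinophil genes Mcpt8, Prss34, Prg2, Prg3 and Fcer1a. Klrb1b averaged 177 CPM in NK cells and Klri2 150 CPM, and both were at 0 in CD8 T cells of these samples. Prg2 at 13148 CPM in HRY.4 and at 0 in another of the samples is the cell named above. Each of these basophil and eosinophil genes had counts in NK cells of a single one of these samples. Prg2, Prg3 and Fcer1a were found in 0% of the 122 cells with other NK genes, and Mcpt8 and Prss34 each in 1.64%. At 0 in NK cells of these samples and highest in their CD8 T cells were Mki67 (561 CPM in CD8 T cells), Trac (426 CPM), Cenpf, Nr4a2, Hist1h2ae, Gzmk (172 CPM), Pdcd1 (162 CPM), Lag3, Cks1b and Plekhb2.

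NK cells differed among themselves in what they held. Gzma and Prf1 were found together in 37 of 122 cells, Gzma alone in 37, Prf1 alone in 10 and neither in 38. A cell with Gzma held a median of 6 UMIs of it, and the highest held 89. Detection followed depth for Prf1 and less for Gzma. Among the 61 deeper cells, with a median of 3512 UMIs, 38 held Gzma and 32 held Prf1. Among the 61 shallower cells, with a median of 1175 UMIs, 36 held Gzma and 15 held Prf1. Mki67 or Top2a was found in 22 of the deeper and 7 of the shallower cells.

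Cells with other NK genes, with and without Cd3d or Cd3g, were set side by side as a description. These neighbouring genes of chromosome 9 (Cd3g at 44969572 to 44980431 and Cd3d at 44981786 to 44987339 in GRCm38) encode chains of the T cell receptor complex. The 102 cells with Cd3d or Cd3g, with Cd3e and Trac at 0 and with at least 3 other NK genes, had a median of 3144 UMIs, and Ncr1 was found in 71.6% of them against 74.6% of the 122 cells without a Cd3 UMI. Gzma was found in 16.7% of the 102 cells against 60.7% of the 122, and at 1000 UMIs per cell in 11.5% against 52.7%. Prf1 was found in 21.6% against 38.5%. Of the 14 effector genes, 6 were found in a higher share of the 102 cells than of the 122, and 4 at 1000 UMIs per cell. Gzma and Prf1 are among the 13 genes that chose both sets. Of the 12 early maturation genes, 12 were found in a higher share of the 102 cells, and 10 at 1000 UMIs per cell, where Cd27 stood at 12.7% of the 102 cells against 13.03% of the 122 and Il7r at 11.3% against 13.4%. That depth left out 18 of the 122 cells and 0 of the 102. No share over all genes is set beside the counts of either list, so they are no result about the lists. Xcl1 was found in 57.8% of the 102 cells against 36.1% of the 122, Thy1 in 52.0% against 25.4%, Cd7 in 71.6% against 51.6% and Tcf7 in 51.0% against 36.9%. At 1000 UMIs per cell the shares were 35.2% against 23.2% for Xcl1, 26.3% against 14.4% for Thy1 and 24.2% against 18.9% for Tcf7. Klrk1, Klrd1, Klre1 and Il2rb stood at like shares in both sets, for instance Il2rb at 89.2% against 88.5%. The summed mean level of the 12 T cell markers was 2173 CPM in the 102 cells and 696 CPM in the 122. In CD8 T cells it was 6609 CPM. Those 12 markers include Cd3d and Cd3g, which chose the 102 cells. Trac was found in 74.8% of CD8 T cells, so Trac at 0 does not exclude a T cell. Whether the 102 cells are NK cells or T cells was not tested.

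Samples carried these cells unequally. Of the 173 hashtag singlets of the wider rule, 80 held Cd3d or Cd3g and 93 did not, and Gzma was found in 9 of the 80 against 55 of the 93. HRO.11 had Cd3d or Cd3g in 14 of 16 of these cells, HRO.5 in 6 of 7, WTO.4 in 18 of 28 and WTY.3 in 12 of 19. WTY.4 had it in none of 9 and WTY.5 in none of 7, where Gzma was found in 8 of 9 and 7 of 7 cells. Gzma was found in 2 of 16 cells of HRO.11 and in 3 of 28 of WTO.4, and these 2 samples come from different pools. In WTO.4 it was found in 2 of 18 cells with Cd3d or Cd3g and 1 of 10 without, so there it was scarce in both. In WTY.3 it was found in 1 of 12 with and 5 of 7 without. In HR.7 it was found in none of 2 with and 7 of 10 without.

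Cd3d itself was not limited to lymphocytes in these data. In 16640 cells with over 500 UMIs of neutrophil markers Cd3d was found in 15.9%, while Cd3e was found in 0.403%. By sample the share of neutrophil-rich cells with Cd3d ran from 0.641% in WTY.4 to 70.7% in HRO.12, with 53.2% in WTO.3 and 51.1% in WTY.3. At 1000 UMIs per cell the lowest was 0.0353% in WTY.4 and the highest was 29.1% in WTO.3, with 26.2% in HRO.12 and 25.6% in WTY.3. HRO.11 and WTO.4, where most cells of the wider rule held Cd3d or Cd3g, were low among neutrophil-rich cells, at 6.41% in HRO.11 and 5% in WTO.4. HRO.12 and WTO.3 were high among neutrophil-rich cells. There Cd3d or Cd3g was found in 3 of 7 and 2 of 8 cells of the wider rule. The part of Cd3d outside T cells in the NK cell shares was not tested. Shares below are also given with Cd3d and Cd3g left free, a rule that also asks for Trac at 0.

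**Figure D3:**
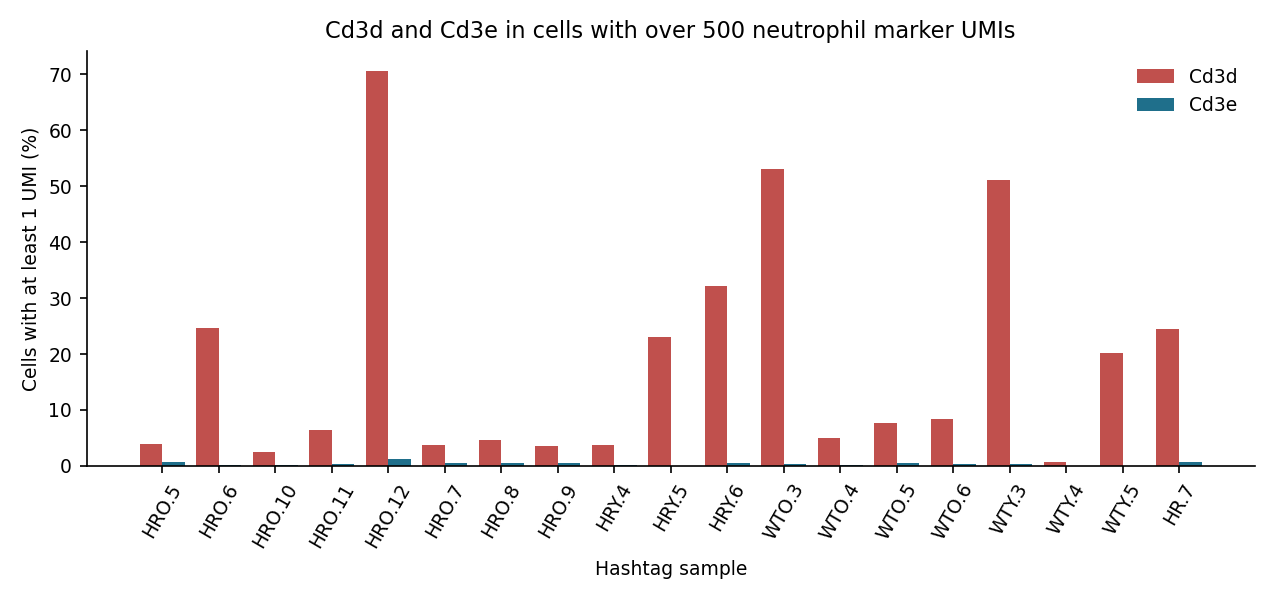
Share (%) of cells with over 500 neutrophil marker UMIs that held at least 1 UMI of Cd3d (red) or Cd3e (blue), by hashtag sample with at least 100 such cells; bars start at 0. Cd3d runs from 0.641% in WTY.4 to 70.7% in HRO.12, while Cd3e stays at or under 1.23%.

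NK cells by the rule made up a smaller share of HRO marrow than of WTO marrow, but the difference did not pass the threshold over the 5 comparisons. The share of kept singlets was 0% in HRO.10 (0 of 1744 cells, which allows up to 0.172%), 0.256% in HRO.11, 0.327% in HRO.12, 0.108% in HRO.7, 0.0399% in HRO.8 and 0.145% in HRO.9. In WTO it was 0.633% in WTO.3, 0.290% in WTO.4, 0.402% in WTO.5 and 0.477% in WTO.6. The groups overlapped at 1 point, since HRO.12 lay above WTO.4 and the other 5 HRO samples lay below every WTO sample. The mean was 0.146 ± 0.126% in HRO (SD, n = 6) and 0.450 ± 0.144% in WTO (SD, n = 4), a difference of -0.30 percentage points (exact two-sided permutation test, p = 0.0190, adjusted p = 0.0952 over 5 comparisons). Within pools the difference was -0.192 points in WBM_2 (3 HRO samples, 1 WTO sample) and -0.148 points in WBM_4 (2 samples each).

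Ddx3y, a gene of the Y chromosome, split the samples nearly along these groups. It was high (at least 110 UMIs per 1000 cells) in 1 of 6 HRO samples (HRO.9), in 3 of 4 WTO samples (all but WTO.4) and in 3 of 3 HRY samples, and at most 15.6 per 1000 cells in the other HRO and WTO samples. Among samples with high Ddx3y, HRO.9 held 0.145% NK cells, against 0.402% to 0.633% in WTO. Among the others, the 5 HRO samples held 0% to 0.327%, against 0.290% in WTO.4. The part of Ddx3y status in the share was not tested.

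Cells with 0 to 2 other NK genes are in these shares where they were hashtag singlets, among them the 1 NK cell of HRO.8, 5 of 7 in HRO.9 and 3 of 6 in WTO.6. With at least 3 other NK genes the mean was 0.0918% in HRO and 0.343% in WTO (exact two-sided permutation test, p = 0.0381, adjusted p = 0.119). Within pools the difference was then -0.258 points in WBM_2 and -0.0424 points in WBM_4.

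Against HRY the HRO share was also lower, with the same limit on the call. The HRY samples held 0.618% (HRY.4), 0.904% (HRY.5) and 0.276% (HRY.6), a mean of 0.599 ± 0.315% (SD, n = 3), so that the HRO mean was 0.453 points below it (exact two-sided permutation test, p = 0.0476, adjusted p = 0.119). HRO.12 alone lay above HRY.6. Ddx3y was high in 1 of the 6 HRO samples and in all 3 HRY samples, so its status nearly coincides with the group here. Both comparisons use the same 6 HRO samples. Within WBM_3, the pool that holds both groups, HRO.10 lay 0.590 points below the mean of HRY.5 and HRY.6.

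The HRO difference also changed with the rule on Cd3, although cells with Cd3d or Cd3g were not shown to be NK cells. With Cd3e and Trac at 0 in place of the 3 Cd3 genes and no other change, it was -0.25 points (exact permutation p = 0.314), with -0.615 points in WBM_2 and 0.383 points in WBM_4. With Cd3e and Trac at 0 and also at least 3 other NK genes, HRO.11 stood at 1.02% and HRO.12 at 0.572%, and HRO.10, HRO.7, HRO.8 and HRO.9 at 0.0573% to 0.145%. The HRO mean was then 0.330 ± 0.390% (SD, n = 6) and the WTO mean 0.538 ± 0.267% (SD, n = 4), with an exact permutation p of 0.381. Within pools the difference was -0.702 points in WBM_2 and 0.488 points in WBM_4, so its direction was not the same in both. With every cell thinned to 1000 UMIs the difference under the first rule was -0.13 points (exact permutation p = 0.181). As a share of NK plus Cd3 cells it was -3.38 points, and HRO was lower there with an adjusted p of 0.0476 (exact permutation test). That share counts every cell with a Cd3 UMI, 617 of 1223 singlets in HRO.12, of which 25 were CD8 T cells, and Cd3d was found in 70.7% of the neutrophil-rich cells of HRO.12. HRO.12 stood at 0.644% and WTO.4 at 3.86% by it, whereas HRO.12 lay above WTO.4 as a share of singlets.

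HRY and WTO did not stand apart from WTY by more than the spread of the samples. WTY held 0.264% (WTY.3), 1.08% (WTY.4) and 0.460% (WTY.5), a mean of 0.600 ± 0.425% (SD, n = 3), so WTY.4 alone exceeded every other sample. HRY differed from WTY by -0.0011 points (exact permutation p = 1; the smallest p this design allows is 0.1). Within pools HRY lay 0.354 points above WTY in WBM_1 and differed by -0.179 points in WBM_3. WTO differed from WTY by -0.15 points (exact permutation p = 0.686), and by 0.369 points in WBM_1, the only pool with both.

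Both chronic samples lay below the other samples of their pool. HRO.5 held 0.0858% NK cells (1 of 1166 cells) and HRO.6 held 0.127% (4 of 3139 cells), while HRY.4 held 0.618%, WTO.3 0.633% and WTY.3 0.264%. The groups did not overlap. The mean was 0.107 ± 0.029% in the chronic samples (SD, n = 2) and 0.505 ± 0.209% in the others (SD, n = 3). The exact permutation test gave p = 0.2, the smallest possible for 2 against 3 when the smaller tail is doubled, as here. With Cd3e and Trac at 0 and at least 3 other NK genes, the chronic samples stood at 0.600% (HRO.5) and 0.255% (HRO.6), against 0.706% in HRY.4, 0.723% in WTO.3 and 0.626% in WTY.3, so HRO.5 moved close to the other samples. The lone samples HR.7 and HR.AE held 0.357% and 0.143%, and both NK cells of HR.AE lacked other NK genes. A share cannot tell fewer NK cells from more cells of other types, and HR.7 and HRO.12 had Cd3 UMIs in 26.1% and 50.4% of all kept singlets.

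**Figure D4:**
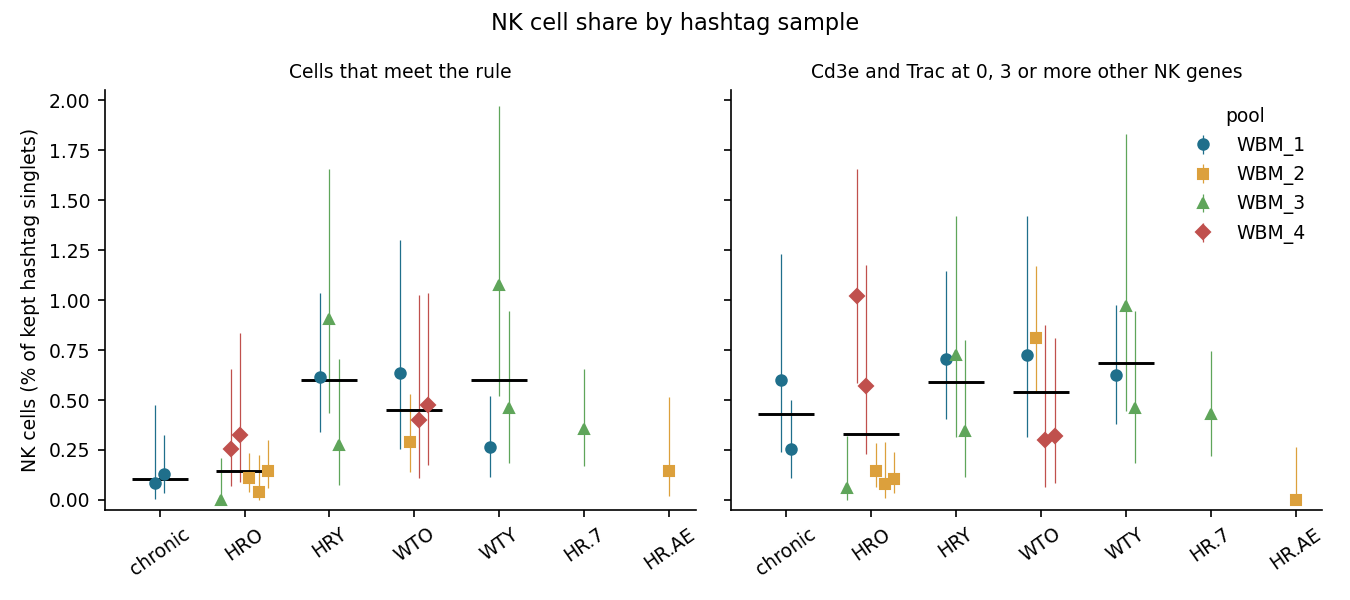
NK cells as a percentage of kept hashtag singlets, by the rule (left) and with Cd3e and Trac at 0 and at least 3 other NK genes (right). Each point is 1 hashtag sample with its exact binomial 95% interval, marked by pool, and black lines are group means; the HRO mean is 0.146% on the left and 0.330% on the right, where HRO.11 reaches 1.02%.

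Gene levels within NK cells were compared over counts summed per hashtag sample. Summing needed at least 3 NK cells with other NK genes, which left HRO.7 and HRO.12 for HRO (n = 2), all 4 WTO samples and all 3 samples each of HRY and WTY, with 3 to 12 cells and 7941 to 27706 UMIs each. The genes that chose the cells were left out, and 285 genes had enough counts. Among them 0 genes (0%) passed an adjusted p of 0.05 for HRO over WTO, 0 (0%) for HRO over HRY, 1 (0.351%) for HRY over WTY and 0 (0%) for WTO over WTY, in edgeR's quasi-likelihood fit, with p-values adjusted after Benjamini and Hochberg. DESeq2 called 0 in each. At an unadjusted p of 0.05, edgeR had 10 genes (3.51%) for HRO over WTO, 7 (2.46%) for HRO over HRY, 15 (5.26%) for HRY over WTY and 6 (2.11%) for WTO over WTY. In simulated counts of HRY over WTY, 82.8% of genes changed 4-fold and 100% of those changed 8-fold were called, beside 5 false calls. No other comparison was simulated, so these rates do not cover those with HRO (n = 2). The simulated counts gave every gene the same spread between samples. They held no pool effect and no cell with RNA of another cell type. The rates hold for that setting only. In the real counts, changes past 4-fold and 8-fold went uncalled. Xcl1 had a log2 fold change of 2.44 ± 0.82 (SE) for HRY over WTY (edgeR adjusted p = 0.398). Tubb5 had -3.178 ± 1.196 for HRO over WTO (edgeR adjusted p = 0.876). Large changes could therefore have been missed as well as small ones.

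The 1 gene called was Ngp, which encodes a granule protein of neutrophils and is no NK gene. Its counts were 136 UMIs in HRY.4, 4 in HRY.5 and 2 in HRY.6, against 17 in WTY.3, 3 in WTY.4 and none in WTY.5, with a log2 fold change of 2.79 ± 0.60 (SE; edgeR adjusted p = 0.0398). Of the 136 UMIs of HRY.4, 131 lay in 1 cell with 1868 UMIs of neutrophil markers among its 4551 UMIs. All 10 neutrophil markers had counts in HRY and in WTY NK cells, and their summed level was 136411 CPM in HRY.4, 1919 CPM in HRY.5 and 930 CPM in HRY.6, against 12180 CPM in WTY.3, 2013 CPM in WTY.4 and 1118 CPM in WTY.5. Without HRY.4, and also without cells of over 500 neutrophil marker UMIs, no gene was called for HRY over WTY. No gene was called without WTY.3 or without WTY.5 either, while 4 were called without HRY.5, 4 without HRY.6 and 3 without WTY.4.

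No other gene was called. For HRO over WTO the adaptor Tyrobp stood at 1735 CPM in HRO.12 and 625 CPM in HRO.7, against 2950 CPM in WTO.3, 1408 CPM in WTO.4, 4031 CPM in WTO.5 and 2668 CPM in WTO.6. The groups overlap through HRO.12, and the log2 fold change was -1.05 ± 0.38 (SE; edgeR adjusted p = 0.876). For HRY over WTY, Xcl1 stood at 657 CPM in HRY.4, 320 CPM in HRY.5 and 1505 CPM in HRY.6, against 173 CPM in WTY.3, 54.4 CPM in WTY.4 and 279 CPM in WTY.5. The WTY levels rest on few UMIs of Xcl1, since WTY.4 held 18384 UMIs of all genes and WTY.5 held 10742. The log2 fold change was 2.44 ± 0.82 (SE; edgeR adjusted p = 0.398). Of the 6 early maturation genes that were tested, 0 were called in each comparison and the median log2 fold change of HRY over WTY was 0.35, against 0.02 over all 285 genes. Of 5 MHC class I genes that were tested 0 were called, with B2m at -0.75 ± 0.64 (log2, SE) for HRO over HRY and 0.11 ± 0.36 for HRO over WTO.

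Levels of the NK genes themselves varied widely within groups. Gzma stood at 7760 CPM in HRO.12 and 139 CPM in HRO.7, against 2950, 144, 4031 and 5870 CPM in WTO.3 to WTO.6. It stood at 1182, 1706 and 398 CPM in HRY.4, HRY.5 and HRY.6, against 7966, 4298 and 1397 CPM in WTY.3, WTY.4 and WTY.5. The 2 lowest samples, HRO.7 and WTO.4, belong to pool WBM_2. HRO.6, the only chronic sample with at least 3 such cells, had 3484 CPM, and HR.7 had 3171 CPM. A fit over all cells that met the rule, in 14 samples with at least 4 of them, kept these genes in the test, and 0 of 482 genes were called in any of the 4 comparisons. There the log2 fold change of Gzma was 0.54 ± 1.77 (SE) for HRO over WTO and -2.28 ± 1.57 for HRY over WTY (edgeR adjusted p = 0.999 for each), and that of Klrk1 was -2.08 ± 1.001 for HRO over WTO (edgeR adjusted p = 0.999). The sums of that fit include cells with 0 to 2 other NK genes. HRO.9 summed to 122492 UMIs, against 4000 over its cells with at least 3, and HRO.7 to 74622 against 14412. WTO.6 summed to 55523 against 11247, while WTO.4 and HRO.12 held no such cells. The part of these cells in the fold changes was not tested. Over cells with at least 3 other NK genes, Klrk1 stood at 456 CPM in HRO.12 and 278 CPM in HRO.7. In WTO samples it stood at 227 to 1191 CPM over such cells. Il2rb ranged from 520 CPM in WTY.3 to 1959 CPM in WTY.4.

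**Figure D5:**
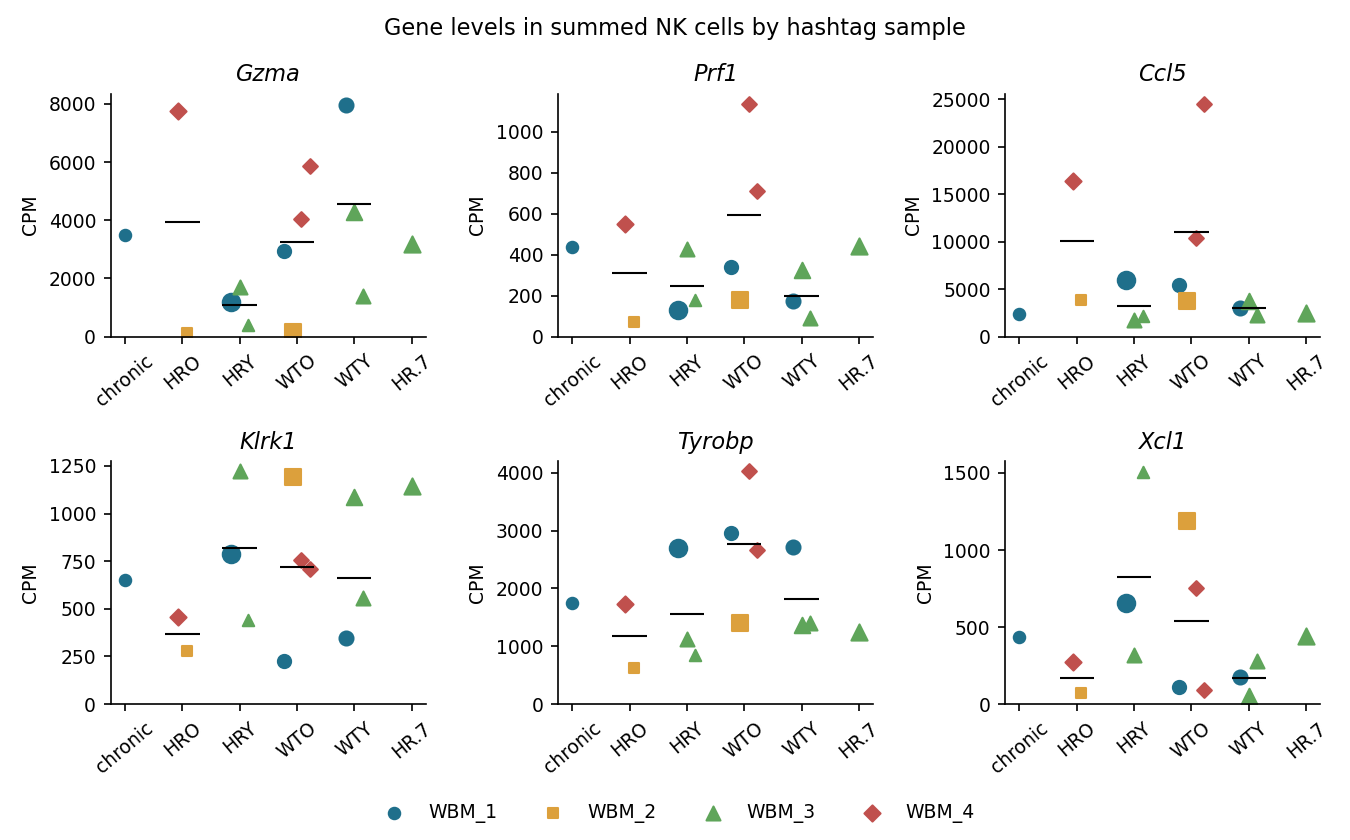
Level (CPM of summed UMIs) of 6 genes in NK cells with other NK genes, 1 point for each hashtag sample with at least 3 such cells; point size grows with the number of cells, shapes mark pools and black lines are group means. HRO holds 2 samples, and for Gzma they lie at 7760 and 139 CPM, wider apart than the means of HRY and WTY.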

How the data were processed

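Marrow cells were hashed, captured with Chromium Single-Cell 3′ v3 and sequenced, per the labels' protocols. The deposited matrices hold raw UMI counts per gene and barcode, made with Cell Ranger 3.0.0 (WBM_1) and 3.1.0 (other libraries), per the file headers; the submitters' processing notes also name bcl2fastq, Seurat and mm10. Intronic reads and strand use were not given in the sources used here. Deposited hashtag counts were normalised by centred log ratio across cells and called with HTODemux (Seurat 5.3.0, quantile 0.99). Cells needed 300 genes and under 10% mitochondrial UMIs. Shares were compared by exact two-sided permutation tests over samples (the smaller tail doubled), adjusted (Benjamini-Hochberg) over 5 comparisons. Counts summed per sample were fitted with edgeR 4.0.16 (quasi-likelihood, TMM, group and pool, 0.05 threshold), tested on simulated data, with DESeq2 1.42.0 as an alternative. The plan asked for 10 NK cells a sample, which left no comparison to fit, so the fit with 3 cells with other NK genes was chosen after seeing the data, as were the wider Cd3 rule, the limit of 500 neutrophil marker UMIs and the list of 13 NK genes. The cells, lists and tests were chosen with earlier results of these data known. Genes named are the 8 largest rises and falls past the threshold with at least 20 CPM, the top 4 of a list by level and the 20 leading profile genes (10 each way against CD8 T cells). Some genes are not reported here. Other genes that were named were chosen after their values were seen. Doublets were treated by hashtag, and the top 5% of Scrublet scores (scanpy 1.11.5) were left out in an alternative. Intervals are exact binomial (95%), the limit for 0 is 3 counts of the total, and both cover counting error only. Shares at 1000 UMIs are expected values over random thinning.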

Additional observations from a re-analysis of the deposited data

How the results depend on the processing

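For HRO over WTO the NK cell share stayed lower in all 20 alternatives. It passed the threshold in 2 of them, at -3.38 points as a share of NK plus Cd3 cells and at -0.35 points with hashtags normalised within each cell (exact permutation test, adjusted p = 0.0476 for each), the first counting 617 of 1223 singlets of HRO.12 as Cd3 cells, where Cd3d was also found in neutrophil-rich cells; leaving out 1 sample at a time gave -0.358 to -0.243 points. For HRO over HRY the direction held in all 19 alternatives, with -0.615 to -0.301 points when 1 sample was left out, and for the chronic samples it held in all 14, with -0.519 to -0.334 points. Thinned to 1000 UMIs, HRO over HRY was -0.116 points (exact permutation p = 0.452). With at least 2 UMIs of each rule gene it was -0.108 points (exact permutation p = 0.286). With Cd3e and Trac at 0 it was -0.316 points (exact permutation p = 0.310). Asking also for at least 3 other NK genes gave -0.261 points (exact permutation p = 0.381). HRY over WTY turned to 0.161 points without HRY.6 and to 0.238 points without WTY.4 (range -0.169 to 0.238 points), and WTO over WTY to 0.0886 points without WTY.4 (range -0.318 to 0.0886 points) and to 0.0321 points with a mitochondrial limit of 5%; the cause was not tested. Without HRO.7 and HRO.8, which stand apart by their cells with Cd8a, HRO over WTO was -0.268 points (exact permutation p = 0.0571). The single gene called for HRY over WTY (1 in the reported fit) became 0 with rule cells, with the wider Cd3 rule, without cells above 500 neutrophil marker UMIs, with DESeq2, without the top 5% of Scrublet scores, with hashtags normalised within each cell, without the pool term and with Ddx3y status as a term, and 4 with at least 2 UMIs of each rule gene (range 0 to 4 when 1 sample was left out). HRO over HRY had 2 calls with no filter on low counts and 2 with hashtags normalised within each cell (leave-one-out range 0 to 2). WTO over WTY had 1 call with DESeq2 size factors in edgeR, 1 with at least 2 UMIs of each and 5 with hashtags normalised within each cell (leave-one-out range 0 to 4). HRO over WTO had 0 calls in all 15 alternatives. With the replicate block (HRY.4, HRY.5, WTY.4 and WTY.5, whose numbers share no stated source) 1 gene was called for HRY over WTY, as without it. With at least 10 or 20 NK cells a sample no comparison could be fitted, nor could the chronic samples, nor HRO with at least 2 UMIs of each rule gene or without the top 5% of Scrublet scores. HRO over HRY and WTO over WTY with the pool term rest on WTO.3, the only sample that links the pools, and could not be fitted without it. Depth limits every gene comparison, since samples held 3 to 12 NK cells.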
